A study of Mus musculus with 12 samples.

Results

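The 5 genes of the interleukin-12 (IL-12) family described here, *Il12a*, *Il12b*, *Il23a*, *Ebi3* and *Il12rb1*, were taken by their symbols from the 561 genes of an nCounter Mouse Immunology Panel, and all 5 were found. The panel counts barcoded probes against immune transcripts in total RNA, here from whole tumors. C57BL6 mice, labelled as 6 to 8 weeks old, carried subcutaneous MC38 tumors (colorectal cancer) or Pan02 or KPC tumors (pancreatic ductal adenocarcinoma). Each tumor model was sampled in WT mice and in Sirpα-/- (Sirpα-KO) mice, whose own cells all lack SIRPα, an inhibitory receptor of myeloid leukocytes. Tumors of 250 to 300 mm3 were left without irradiation (no IR) or received 1 local X-ray dose of 8 Gy (IR). The 12 samples thus formed 4 groups of 3 (WT no IR, Sirpα-/- no IR, WT IR and Sirpα-/- IR), with 1 sample for each tumor model in a group. Each sample pooled the RNA of 4 mice, 2 taken at 12 h and 2 at 18 h, so neither the spread between mice nor the difference between the time points can be seen. In RNA of whole tumors, fewer cells of a type and less RNA per cell cannot be told apart.

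IL-12 cytokines are heterodimers, in which an alpha subunit folded like IL-6 is joined to a beta subunit that resembles a soluble cytokine receptor. *Il12a* encodes the alpha subunit p35 and *Il23a* the alpha subunit p19, while *Il12b* encodes the beta subunit p40 and *Ebi3* a beta subunit of its own. IL-12 is p35 with p40, IL-23 is p19 with p40, IL-27 is the *Il27* product p28 with EBI3, and IL-35 is p35 with EBI3. Activated dendritic cells and macrophages are the main source of p40. *Il12rb1* encodes the receptor chain that binds p40 and serves both the IL-12 and the IL-23 receptor on T cells and NK cells. IL-12 drives IFNγ production and type 1 responses, and IL-23 sustains type 17 responses.

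In the mouse reference GRCm38.p6 of RefSeq, *Il12a* lies on chromosome 3 from 68690644 to 68698550, *Il12b* on chromosome 11 from 44400063 to 44414677, *Ebi3* on chromosome 17 from 55952623 to 55957022, *Il23a* on chromosome 10 from 128296140 to 128298084 and *Il12rb1* on chromosome 8 from 70808360 to 70823542. RefSeq windows of 250 bases before a start site were matched for 3 of the 5 genes, *Il12a* with 2 start sites. They are shown for the subunits whose level moved after IR in Sirpα-/- mice, as the stretches where inducible factors of antigen-presenting cells bind in general. Capitals mark matches on either strand to GGGNNNNNCC, a loose pattern of NF-κB sites.
Il12b, chr11:44399813-44400062, plus strand: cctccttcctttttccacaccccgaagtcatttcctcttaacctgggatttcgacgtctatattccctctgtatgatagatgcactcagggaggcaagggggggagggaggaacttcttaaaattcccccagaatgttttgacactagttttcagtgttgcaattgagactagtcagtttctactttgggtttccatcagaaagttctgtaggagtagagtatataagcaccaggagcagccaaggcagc
Ebi3, chr17:55952373-55952622, plus strand: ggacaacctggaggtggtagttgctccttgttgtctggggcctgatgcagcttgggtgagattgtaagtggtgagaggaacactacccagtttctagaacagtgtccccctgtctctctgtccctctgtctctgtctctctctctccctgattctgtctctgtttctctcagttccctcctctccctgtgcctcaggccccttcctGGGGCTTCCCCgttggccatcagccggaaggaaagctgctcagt
Il12a, second start site, chr3:68691174-68691423, plus strand: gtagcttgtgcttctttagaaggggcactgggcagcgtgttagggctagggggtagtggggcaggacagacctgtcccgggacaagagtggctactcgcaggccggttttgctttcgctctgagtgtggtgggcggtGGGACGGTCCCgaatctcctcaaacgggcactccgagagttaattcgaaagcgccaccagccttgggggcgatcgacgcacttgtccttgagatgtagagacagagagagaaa
The *Ebi3* window and the second *Il12a* window held 2 overlapping matches each, and the *Il12b* window and the first *Il12a* window held none. Of 32851 windows of this length, 45.8% held at least 1 match, so the pattern is common. The interferon-response pattern GAAANNGAAA occurred in none of the 4 windows and in 2.98% of all windows. A match or its absence is a description of the letters only.

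Values are normalized counts. Within a sample all values above the lowest were spaced by a fixed step, the value of 1 count, and were whole multiples of it in 7 samples and ended in 0.5 of it in 5 samples, so the net counts behind each value could be recovered. The value of 1 count ranged from 0.504 to 6.48 normalized counts. The non-irradiated KPC samples stood apart, with 12025 (Sirpα-/-) and 21400 (WT) net counts over the genes above the lowest value, against 79121 to 403332 in the other 10 samples. A level of at most 3 net counts was taken as the floor of a sample. The low end of the panel was raised after IR in Sirpα-/- mice, where 20% of the genes lay below 20.5 in MC38, 49.5 in Pan02 and 17.8 in KPC, while this 20th percentile did not exceed 6.48 in any of the 9 remaining samples. All comparisons with Sirpα-/- IR below rest on these 3 samples.

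*Il12a* had its highest level in non-irradiated tumors in Pan02 and KPC and in irradiated WT tumors in MC38. In MC38 tumors it was at 28.3 normalized counts in WT no IR, 12.4 in Sirpα-/- no IR, 59.4 in WT IR and 1.78 in Sirpα-/- IR. In Pan02 tumors it was at 11.8, 50.9, 1 and 2.42 in the same order. In KPC tumors it was at 114, 239.9, 2.02 and 4.31. After IR it was thus lower in 5 of 6 pairs of samples, and MC38 tumors of WT mice were the exception. The groups ranked Sirpα-/- no IR (101.06 ± 122, SD, n = 3), WT no IR (51.3 ± 54.7), WT IR (20.8 ± 33.4) and Sirpα-/- IR (2.84 ± 1.32), and only the values of Sirpα-/- IR lay below every value of both non-irradiated groups. The share of all genes with this last pattern was not counted.

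Within tumor models, where 1 sample stands against 1 sample and no test is possible, 95% intervals were taken from the net counts and cover counting error only. In KPC tumors, *Il12a* was 56.3-fold lower after IR in WT mice (interval 19.9 to 221) and 55.7-fold lower in Sirpα-/- mice (24.5 to 148). In Pan02 tumors the irradiated samples were at their lowest value, so *Il12a* was at least 4.83-fold lower in WT and at least 7.02-fold lower in Sirpα-/- mice against a floor of 3 counts per sample. The fall in Sirpα-/- MC38 tumors was 6.96-fold (1.62 to 66.8), whereas in WT MC38 tumors *Il12a* was 2.10-fold higher after IR (1.31 to 3.37). The irradiated MC38 tumors therefore differed most by genotype, with 33.4-fold less *Il12a* in Sirpα-/- than in WT mice (8.77 to 289, from 2 net counts in the former). Without IR, *Il12a* was higher in Sirpα-/- than in WT mice in Pan02 tumors (4.31-fold, 2.28 to 8.59) and KPC tumors (2.11-fold, 1.27 to 3.53), and lower in MC38 tumors (2.29-fold, 1.13 to 4.68).

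**Figure D1:**
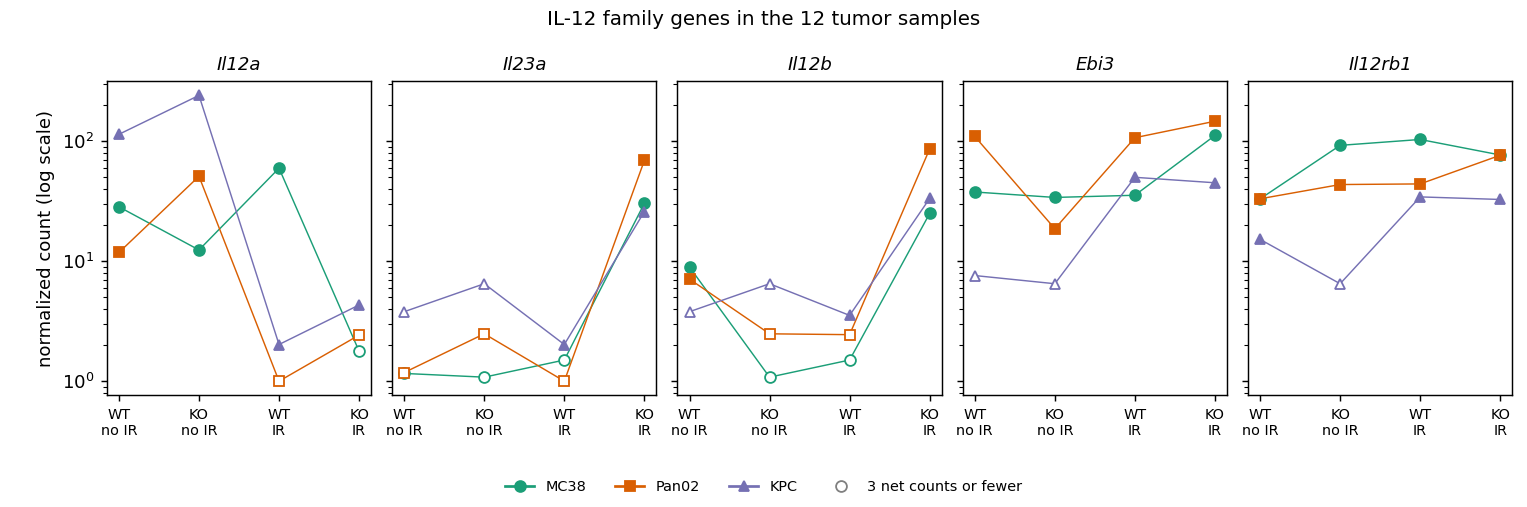
Normalized counts (log scale) of the 5 genes in the 4 groups, with 1 point per sample; lines join the samples of a tumor model and open points lie at 3 net counts or fewer. *Il12a* lies between 1 and 4.31 in every irradiated sample but MC38 in WT mice, and *Il12b* and *Il23a* lie highest in the 3 Sirpα-/- IR samples.

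The high *Il12a* values of non-irradiated KPC tumors came from few counts that were each worth much. Net counts of *Il12a* in the 6 non-irradiated samples ran from 11.5 to 37.0, a 3.22-fold range, while the net counts of these samples differed 33.5-fold. In KPC tumors *Il12a* had 30 (WT) and 37 (Sirpα-/-) net counts without IR and 4 and 7 after IR, although the irradiated samples were the deeper ones at 239965 and 178442 net counts. In the unscaled net counts, too, *Il12a* was lower after IR in 5 of 6 pairs. The part of the depth in the levels before IR was not tested.

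**Figure D2:**
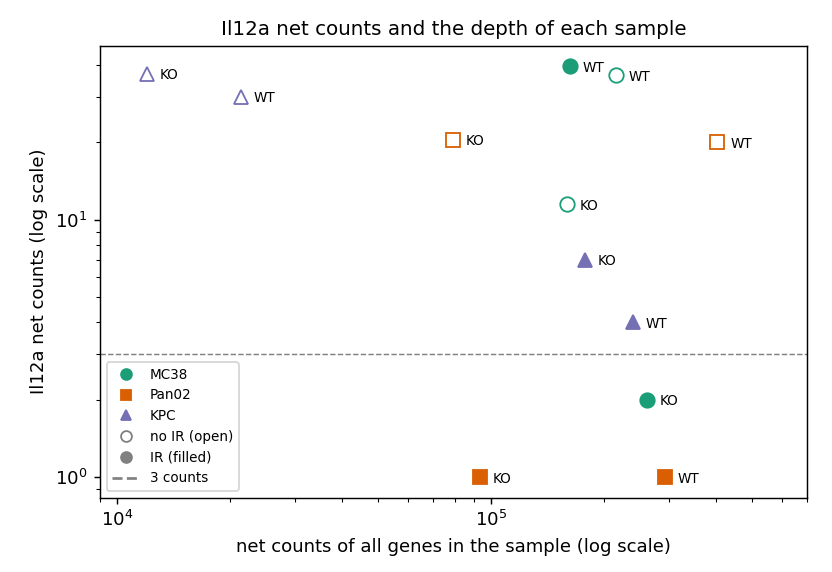
Net counts of *Il12a* against the net counts of all genes above the lowest value in the same sample (both log scale), with open points for no IR, filled points for IR and letters for the genotype. The 6 non-irradiated samples lie between 11.5 and 37.0 at every depth, and 5 of the 6 irradiated samples lie at 7 or below.

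Conditions were tested over the 3 tumor models with limma on log2(normalized count + 10), for the 461 genes that reached 50 in at least 1 sample and with the tumor model as a block. Tumor models serve as the replicates, and the p-values therefore carry no information on the spread between mice. The added 10 makes fold changes of low genes smaller than they are. In Sirpα-/- mice, IR changed 43.2% of the genes tested (198 higher and 1 lower), and *Il12a* was the 1 gene that fell, by 2.45 on the log2 scale (SE 0.85, limma adjusted p = 0.038, lower in 3 of 3 tumor models). The split depended on the scaling, as the median gene rose by 0.91 as deposited, 0.74 relative to the 14 reference genes and 0.35 with median ratios, and the calls were 145 higher and 1 lower with reference genes, 56 and 9 with median ratios, 18 and 4 after quantile normalization and 14 and 26 with edgeR on the recovered counts. The *Il12a* estimate was negative under each of these scalings, and its call was lost with median ratios (adjusted p = 0.0597) and after quantile normalization (adjusted p = 0.0726). Without the 2 shallow KPC samples the *Il12a* estimate was -1.37 (adjusted p = 0.224), without all KPC samples it was -1.61 (adjusted p = 0.197) and without Pan02 it was -2.53 (adjusted p = 0.189), so the call was also lost without those samples while the direction was kept. In WT mice the estimate was -1.16 (SE 0.85, adjusted p = 0.471, lower in 2 of 3).

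As deposited, few genes were lower after IR, a share that the scalings above change. Of 561 genes, 3.74% (21 genes) were lower after IR in both genotypes of Pan02 and KPC, and 5.53% (31 genes) were lower after IR in Sirpα-/- mice in each tumor model, *Il12a* among both. These shares include genes at their lowest value, which differs between samples. In the Sirpα-/- IR samples *Il12a* ranked at the 3.39, 1.52 and 4.72 percentile of all genes (MC38, Pan02 and KPC). In the WT IR samples it ranked at the 47.7, 7.13 and 14.3 percentile in the same order. Without IR it stood at the 47.1 (WT) and 34.8 (Sirpα-/-) percentile in MC38. In Pan02 without IR it stood at the 27.0 percentile (WT) and at the level of the median gene (Sirpα-/-). In the shallow KPC samples without IR it stood at the 80.0 (WT) and 91.1 (Sirpα-/-) percentile, with 176 and 267 genes at the lowest value. The part of the raised low end in the Sirpα-/- IR ranks was not tested.

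*Il23a*, the alpha subunit of IL-23, was at or near the floor everywhere but in irradiated Sirpα-/- tumors. In MC38 tumors it was at 1.16, 1.08, 1.50 and 30.3 normalized counts in WT no IR, Sirpα-/- no IR, WT IR and Sirpα-/- IR. In Pan02 tumors it was at 1.18, 2.48, 1 and 68.9, and in KPC tumors at 3.79, 6.48, 2.02 and 25.8. The lowest Sirpα-/- IR value, 25.8, lay above the highest of the other 9, 6.48. Against WT IR, *Il23a* was at least 6.71-fold higher in MC38, at least 28.2-fold higher in Pan02 and 12.8-fold higher in KPC (4.65 to 49.2).

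*Il12b*, the p40 subunit shared by IL-12 and IL-23, was likewise highest in Sirpα-/- IR in each tumor model. It was at 8.92, 1.08, 1.50 and 24.9 in MC38 tumors, at 7.08, 2.48, 2.44 and 85.8 in Pan02 tumors and at 3.79, 6.48, 3.53 and 33.2 in KPC tumors. All 3 Sirpα-/- IR values again lay above all 9 others, while WT no IR, Sirpα-/- no IR and WT IR overlapped. Against WT IR, *Il12b* was at least 5.52-fold higher in MC38, 35.2-fold higher in Pan02 (11.3 to 181, against 3 net counts) and 9.41-fold higher in KPC (4.27 to 24.5). Against Sirpα-/- no IR it was at least 7.72-fold, 11.5-fold and 1.71-fold higher in MC38, Pan02 and KPC, where the last bound is small because 3 counts of the shallow KPC sample came to 19.5 normalized counts.

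Between the irradiated genotypes, both subunits passed the test. *Il12b* was higher in Sirpα-/- mice by 2.07 on the log2 scale (SE 0.37, limma adjusted p = 0.00593, higher in 3 of 3 tumor models) and *Il23a* by 2.08 (SE 0.35, adjusted p = 0.0048, 3 of 3). They were 2 of the 5 family genes, beside 16.5% of all genes tested (73 higher and 3 lower, or 57 and 35 with edgeR on the recovered counts). After IR in Sirpα-/- mice, *Il12b* rose by 2.00 (adjusted p = 0.00701) and *Il23a* by 1.88 (adjusted p = 0.00701), and neither passed in WT mice, where the estimates were -0.40 and -0.06 (adjusted p = 0.594 and 0.939). Without KPC both lost the call for IR in Sirpα-/- mice (2.30 and 2.26, adjusted p = 0.0614 for each). Both genes passed the filter on low values only through the irradiated Pan02 tumor of Sirpα-/- mice, so they were not tested without Pan02. Under this filter they could not have been tested without being high in Sirpα-/- IR, and the count of 2 of 5 carries no further weight. Without KPC the comparison of the irradiated genotypes gave an adjusted p of 0.0891 for both genes, and without MC38 it gave 0.0518 for *Il23a* and 0.0492 for *Il12b*.

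Many low genes shared this pattern. Of 561 genes, 33.5% were highest in Sirpα-/- IR of the 4 conditions in each tumor model, and 16.2% had all 3 Sirpα-/- IR samples above all 9 others, *Il12b* and *Il23a* among both. Of the 76 genes called between the irradiated genotypes, 68 reached the filter of 50 only in Sirpα-/- IR samples. In the Sirpα-/- IR samples *Il12b* was 1.22 (MC38), 1.73 (Pan02) and 1.86 (KPC) times the 20th percentile of the sample, and *Il23a* 1.48, 1.39 and 1.45 times. By rank, *Il12b* stood at the 26.8, 36.6 and 40.4 percentile of the genes in these samples, and in the MC38 tumor of non-irradiated WT mice at the 37.6 percentile with 8.92 normalized counts. After quantile normalization, which gives all samples the same distribution, the difference between the irradiated genotypes was 0.90 for *Il12b* (adjusted p = 0.198) and 0.80 for *Il23a* (adjusted p = 0.0674). The part of the raised low end in the levels of both genes was not tested.

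**Figure D3:**
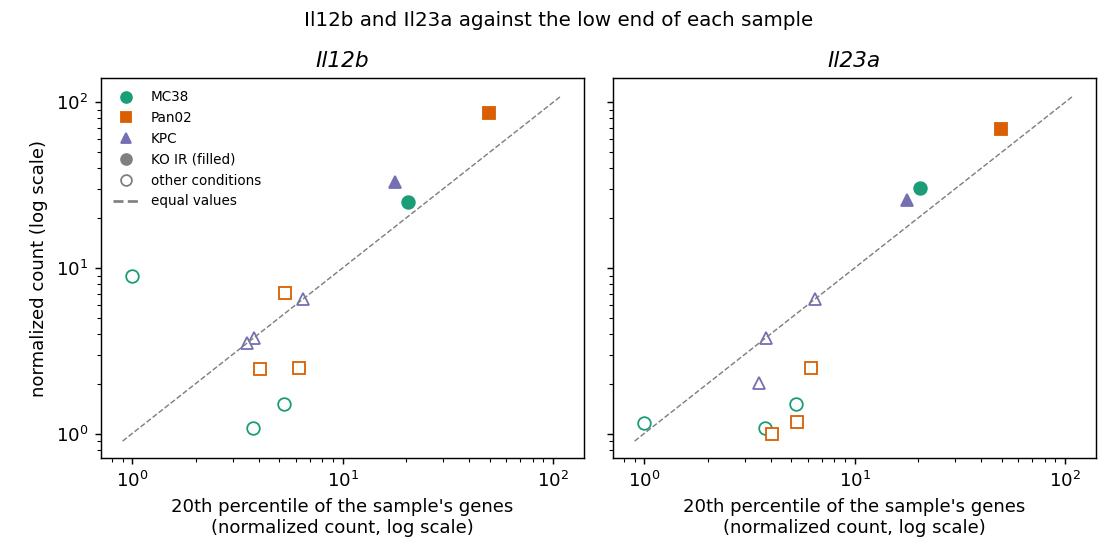
*Il12b* (left) and *Il23a* (right) in each sample against the 20th percentile of all genes in that sample (normalized counts, log scales), with filled points for Sirpα-/- IR and a dashed line of equal values. The 3 filled points lie at 17.8 to 49.5 on the x axis and between 1.22 and 1.86 times that value, and the other samples lie at 6.48 or less.

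*Ebi3*, the beta subunit of IL-27 and IL-35, was above the floor in 10 of 12 samples. In MC38 tumors it was at 37.6 (WT no IR), 33.9 (Sirpα-/- no IR), 35.4 (WT IR) and 111 (Sirpα-/- IR) normalized counts. In Pan02 tumors it was at 109, 18.6, 107 and 146, and in KPC tumors at 7.58, 6.48, 49.9 and 44.9, the first pair from at most 2 net counts. MC38 tumors were thus set apart by Sirpα-/- IR, Pan02 tumors by a low Sirpα-/- no IR sample and KPC tumors by IR in both genotypes.

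The ratios within tumor models followed the same lines. In MC38, *Ebi3* was 3.15-fold higher in Sirpα-/- IR than in WT IR (1.98 to 4.99). In Pan02 it was 5.87-fold lower in Sirpα-/- than in WT mice without IR (2.73 to 12.9) and rose 7.86-fold with IR in Sirpα-/- mice (3.54 to 18.0), and the irradiated genotypes differed by 1.37-fold (1.003 to 1.89). In KPC it was 6.58-fold higher after IR in WT mice (1.77 to 55.1, against 2 net counts) and at least 2.31-fold higher in Sirpα-/- mice. Across tumor models, *Ebi3* rose after IR in Sirpα-/- mice by 1.88 on the log2 scale (SE 0.47, limma adjusted p = 0.0124, higher in 3 of 3). The call was lost without Pan02 (1.60, adjusted p = 0.111), without KPC (1.957, adjusted p = 0.0641), without the tumor model as a block (adjusted p = 0.104) and with edgeR on the recovered counts (1.16, adjusted p = 0.21). Between the irradiated genotypes its difference of 0.57 did not pass (SE 0.47, adjusted p = 0.514).

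*Il12rb1*, the shared receptor chain, was above the floor in 11 of 12 samples. It was at 33.0, 92.1, 103 and 76.5 normalized counts in MC38 tumors, at 33.0, 43.4, 43.9 and 76.1 in Pan02 tumors and at 15.2, 6.48, 34.3 and 32.6 in KPC tumors, in the order WT no IR, Sirpα-/- no IR, WT IR and Sirpα-/- IR. The KPC values without IR came from 4 (WT) and at most 1 (Sirpα-/-) net counts, and the KPC ratio for IR in WT mice was 2.26 (0.843 to 8.53). In MC38 *Il12rb1* was 2.79-fold higher in Sirpα-/- than in WT mice without IR (1.90 to 4.10) and 3.12-fold higher after IR in WT mice (2.10 to 4.66). The irradiated genotypes differed by 1.73-fold in Pan02 (1.10 to 2.78), with ratios of 0.743 in MC38 (0.531 to 1.03) and 0.952 in KPC (0.652 to 1.38). None of the fits between conditions called the gene. The estimates were 0.61 for IR in Sirpα-/- mice (SE 0.39, limma adjusted p = 0.224, higher in 2 of 3) and 0.85 for IR in WT mice (SE 0.39, adjusted p = 0.285, higher in 3 of 3), and between the irradiated genotypes the estimate was 0.08 (SE 0.39, adjusted p = 0.93).

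In all, 4 of the 5 family genes passed the test for IR in Sirpα-/- mice (3 higher and 1 lower), where 43.2% of all genes did, and 2 of 5 for genotype after IR, where 16.5% did. The median log2 fold change of the 5 genes for genotype after IR was 0.57, beside 0.16 over all genes tested, and for IR in Sirpα-/- mice it was 1.88, beside 0.91. *Il12b* and *Il23a* are in these counts and medians, and both reached the filter only in Sirpα-/- IR. The counts and medians of the 5 genes therefore carry no further weight. For IR in WT mice, for genotype without IR and for the difference of the IR effect between genotypes, the limma fit called 0 of the 5 and 0 of 461 genes (0.0%), with 76, 12 and 74 genes at an unadjusted p under 0.05, and edgeR on the recovered counts also called 0 in each. The IR effect differed between genotypes by 2.40 for *Il12b* (SE 0.53, adjusted p = 0.0769) and by 1.94 for *Il23a* (SE 0.49, adjusted p = 0.104). *Ebi3*, *Il12a* and *Il12rb1* had differences of 1.33, -1.28 and -0.24 (adjusted p = 0.365, 0.683 and 0.907). It is therefore not shown that the response to IR of any of the 5 genes depended on the genotype.

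**Figure D4:**
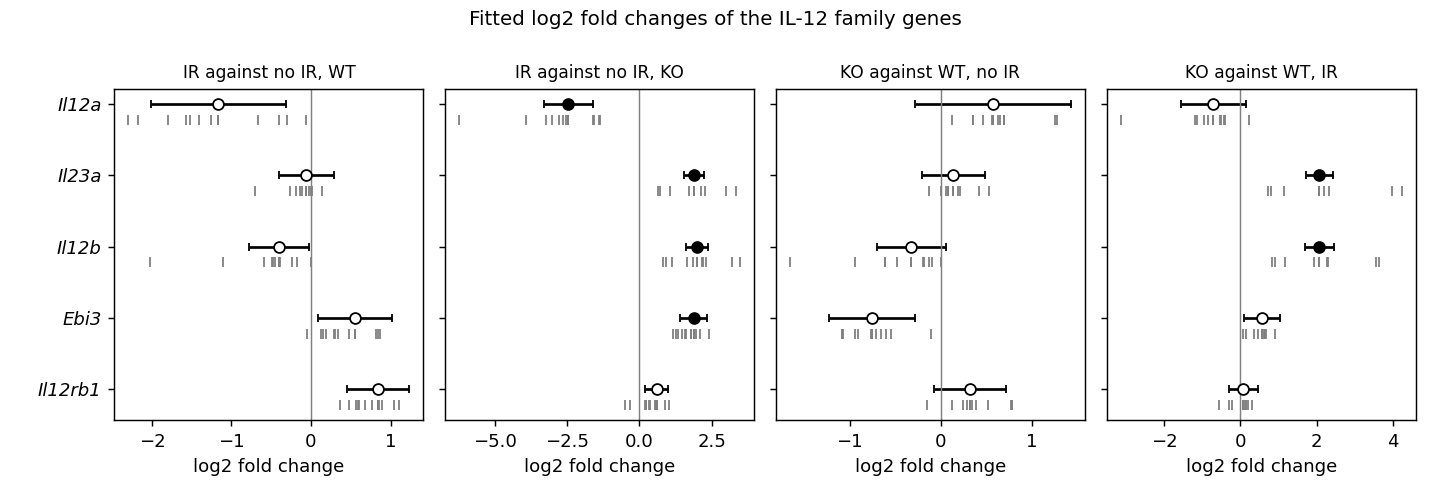
Log2 fold changes of log2(normalized count + 10) fitted by limma over the 3 tumor models (points, with SE as bars), filled where the adjusted p was under 0.05, with grey ticks for the alternative settings. Filled points are *Il12a* at -2.45, *Il23a* at 1.88, *Il12b* at 2.00 and *Ebi3* at 1.88 for IR in Sirpα-/- mice, and *Il23a* and *Il12b* at 2.08 and 2.07 for genotype after IR.

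Between tumor models, *Il12rb1* was lower in KPC than in MC38 (-1.44, limma adjusted p = 0.00513, beside 47.3% of genes called), and *Ebi3* (-1.51, adjusted p = 0.00705) and *Il12rb1* (-0.94, adjusted p = 0.0295) were lower in KPC than in Pan02 (67.2% of genes called). The median gene was lower in KPC by 0.72 and 1.03 on the log2 scale in these comparisons, and the reference genes were lower in KPC as well. Relative to the 14 reference genes the 3 differences were -0.54, -0.87 and -0.31 (adjusted p = 0.328, 0.19 and 0.64), and none passed. The calls of KPC against MC38 were 11 higher and 207 lower as deposited and 34 and 10 relative to the reference genes, and those of KPC against Pan02 were 1 and 309 as deposited and 0 relative to the reference genes. None of the 5 genes passed between Pan02 and MC38, where 26.9% of genes were called (85 higher and 39 lower, or 115 and 21 relative to the reference genes and 52 and 66 after quantile normalization).

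Since these cytokines act as pairs, it was counted in how many samples both subunits exceeded 3 net counts. *Il12a* and *Il12b*, the subunits of IL-12, did so together in 4 of 12 samples, the non-irradiated WT tumors of MC38 and Pan02 and both irradiated KPC tumors. Only 1 of the 3 Sirpα-/- IR samples was among them, since *Il12a* was at the floor in the other two. *Il23a* and *Il12b*, the subunits of IL-23, exceeded the floor together in all 3 Sirpα-/- IR samples and in 1 other sample, the irradiated KPC tumor of WT mice with 4 and 7 net counts. For *Il27* and *Ebi3* it was 6 samples, 3 of them Sirpα-/- IR, and for *Il12a* and *Ebi3* 7 samples, 1 of them Sirpα-/- IR. The receptor chains *Il12rb1* and *Il23r* exceeded the floor together in the 3 Sirpα-/- IR samples and in 0 of the other 9, and *Il12rb1* and *Il12rb2* in 7 samples. Most genes exceeded the floor in Sirpα-/- IR. The 20th percentile lay at 20.5 (MC38), 49.5 (Pan02) and 17.8 (KPC) there, and 3 counts came to 2.67, 7.25 and 1.85. The share of all gene pairs with such a pattern was not counted, so these counts are a description only. Whether both transcripts came from the same cells cannot be seen in whole tumors.

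The lists of related genes are read against the same shares over all genes tested, 16.5% for genotype after IR and 43.2% for IR in Sirpα-/- mice, nearly all of them higher, and against the raised low end of 20.5 (MC38), 49.5 (Pan02) and 17.8 (KPC) in Sirpα-/- IR. Of 11 genes for partners, receptors and signalling, 9 passed the filter on low values, and 2 were higher in Sirpα-/- IR than in WT IR while 5 rose after IR in Sirpα-/- mice. *Il27*, the partner of *Ebi3*, was at 28.5 (MC38), 76.1 (Pan02) and 20.9 (KPC) normalized counts in Sirpα-/- IR and at 6.49 or less in the other 9 samples, and it differed from WT IR by 1.74 (SE 0.35, limma adjusted p = 0.00718). *Il23r*, the specific chain of the IL-23 receptor, was at 11.6, 93.0 and 17.8 in Sirpα-/- IR and differed by 1.82 (SE 0.47, adjusted p = 0.0216). Both reached the filter only in Sirpα-/- IR, and *Il23r* lay below the 20th percentile of the sample in MC38. *Il27ra*, the specific chain of the IL-27 receptor, rose after IR in Sirpα-/- mice by 1.61 (adjusted p = 0.0213), and it too reached the filter only in Sirpα-/- IR. *Tyk2*, a kinase of these receptors, rose after IR in Sirpα-/- mice by 1.10 (adjusted p = 0.0271). *Il12rb2*, which encodes the second chain of the IL-12 receptor, was at 15.1, 23.0 and 6.15 in Sirpα-/- IR and at 12.4 or less in the others, and was below the filter. The median of the list was -0.16 for genotype after IR and 0.97 for IR in Sirpα-/- mice, beside 0.16 and 0.91 over all genes.

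Genes that respond to IL-12 in T cells and NK cells passed in 3 of 10 cases for genotype after IR and in 5 of 10 for IR in Sirpα-/- mice, beside 16.5% and 43.2% of all genes. *Ifng*, *Tbx21* and *Fasl* reached the filter only in Sirpα-/- IR, so they could not have been tested without being high there. *Ifng*, the cytokine that IL-12 induces, was at 24.9, 197 and 42.5 normalized counts in Sirpα-/- IR (MC38, Pan02 and KPC) against 8.27, 18.7 and 8.56 in WT IR, a difference of 1.76 (SE 0.45, limma adjusted p = 0.0216). *Tbx21*, the type 1 transcription factor T-bet, differed by 2.19 (SE 0.43, adjusted p = 0.00718) and *Il18rap*, a chain of the IL-18 receptor, by 1.43 (SE 0.39, adjusted p = 0.0289). *Fasl*, a death ligand of cytotoxic cells, rose after IR in Sirpα-/- mice by 1.67 (adjusted p = 0.00951). The median of this list was 0.47 for genotype after IR and 1.22 for IR in Sirpα-/- mice, beside 0.16 and 0.91 over all genes tested. With *Ifng*, *Tbx21* and *Fasl* in them, the counts and medians of the list carry no further weight.

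In the list of IL-23 and type 17 genes, 4 of 8 were higher in Sirpα-/- IR than in WT IR and 5 of 8 rose after IR in Sirpα-/- mice, with medians of 1.54 and 1.53. All 4 and all 5 reached the filter only in Sirpα-/- IR, so they could not have been tested without being high there, and the counts and medians carry no further weight. *Il17f*, a type 17 effector cytokine, was at 22.3, 105 and 35.1 normalized counts in Sirpα-/- IR and differed from WT IR by 1.99 (SE 0.45, limma adjusted p = 0.0115). *Il21*, *Ccl20* (the ligand of CCR6) and *Ccr6* differed by 1.94, 2.00 and 1.82 (adjusted p = 0.00718, 0.00805 and 0.00718). *Il17a* itself had another order, at 125 and 194.5 in non-irradiated KPC tumors (WT and Sirpα-/-), from 33 and 30 net counts, and at 8.90, 83.4 and 22.8 in Sirpα-/- IR. In MC38 *Il17a* was higher in Sirpα-/- no IR (66.2, from 61.5 net counts) and WT IR (100.04, from 66.5) than in Sirpα-/- IR. In Pan02 it was highest in Sirpα-/- IR.

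Another list held genes tied to the induction of IL-12 in antigen-presenting cells, without regard to whether they promote or restrain it. Of these, 1 of 16 was higher in Sirpα-/- IR than in WT IR, beside 16.5% of all genes. It was *Irf4* (1.65, SE 0.43, limma adjusted p = 0.0227). After IR in Sirpα-/- mice 7 of 16 rose, a share near the 43.2% of all genes. Among these were the sensors *Tlr2* (1.95, adjusted p = 0.0058) and *Tlr9* (1.43, adjusted p = 0.0124), the receptor *Cd40* (1.51, adjusted p = 0.0124) and *Irf8* (1.69, adjusted p = 0.0124), a transcription factor that activates *Il12b*. *Irf4* and *Tlr2* reached the filter only in Sirpα-/- IR, so they could not have been tested without being high there. The medians of this list were 0.09 and 0.84, beside 0.16 and 0.91 over all genes tested. Of 3 other genes of the IL-6 kind, only *Lif* passed, for IR in Sirpα-/- mice (1.78, adjusted p = 0.00978).

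The summed levels of cell type markers overlapped between Sirpα-/- IR and WT IR in every list but that of B cells. The summed level of 6 B cell markers was 122 to 331 normalized counts in Sirpα-/- IR and 38.8 to 60.2 in WT IR. Of these markers, 4 of 5 tested were called higher, beside 16.5% of all genes. All 5 tested B cell markers reached the filter only in Sirpα-/- IR, so this count carries no further weight. The same share of all genes stands beside the calls of the other lists. For 5 dendritic cell markers it was 220 to 588 against 153 to 515, with *Ccr7*, *Xcr1* and *Batf3* called higher. *Cd83* and *Itgax* were not called. Compared with WT IR, *Cd83* was lower in Pan02 (124 against 174) and KPC (36.9 against 66.5) and higher in MC38 (122 against 88.0). *Itgax* was lower in Pan02 (255 against 317) and higher in MC38 and KPC. For 8 markers of T and NK cells it was 309 to 1097 against 293 to 690, with 1 of 6 tested called higher (*Cd8b1*). For 5 neutrophil markers it was 303 to 3010 against 156 to 2003, with 1 of 5 called higher (*Cxcr2*). The neutrophil marker *Itgam* was not called, being lower than in WT IR in Pan02 (117 against 175) and KPC (51.7 against 73.6) and higher in MC38 (109 against 54.9). For 9 markers of macrophages and monocytes it was 2334 to 8615 against 3032 to 7129, with 0 of 8 called by limma. Each of the 4 B cell markers and the 5 other markers called here reached the filter only in Sirpα-/- IR. In Sirpα-/- IR and in WT IR no marker of any list was at its lowest value in all 3 samples. The part of these cell types in the levels of *Il12b* and *Il23a* was not tested.

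The genes whose log2 values ran most like those of each family gene were taken by Pearson's r over the 12 samples, among 460 other genes, as a description of samples that share depth and scaling. For *Il12b* they were *Ifna2* (0.97), *Il21* (0.97) and *Il9* (0.96), and for *Il23a* *Il19*, *Il25* and *Ccrl1* (0.998, 0.996 and 0.994), all of them at their highest in the Sirpα-/- IR samples. *Il12b* and *Il23a* had an r of 0.96 with each other. For *Il12a* they were *Gp1bb* (0.79), *Cd99* (0.73) and *Il17a* (0.71). *Ebi3* ran with *Bcl6* (0.95), *Cybb* (0.94) and *Ikzf1* (0.94), and *Il12rb1* with *Thy1* (0.94), *Runx3* (0.92) and *Irf1* (0.91). *Il12a* and *Ebi3*, the subunits of IL-35, ran in opposite directions (r = -0.87).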

How the data were processed

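Total RNA of 12 tumor samples was counted with the nCounter Mouse Immunology Panel. The authors processed the counts in nSolver 2.6, deducted the background of the negative controls and applied a factor from the positive controls, and deposited the resulting signal as normalized counts. Both deposited tables were identical in all 6732 gene values, and 0 columns were left unmapped.

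Net counts were recovered from the spacing of low values (tolerance 0.1 count) and came out whole in 7 samples and ending in 0.5 in 5 samples. Counts ending in 0.5 were rounded up for the 95% Clopper-Pearson intervals. The test was limma 3.58.1 in R 4.3.3, with a variance trend, on log2(value + 10) for 461 genes reaching 50 in any sample, with Benjamini-Hochberg adjustment over all of them and a threshold of 0.05. The tumor model was the block, as the only pairing in the labels. Tried as alternatives were the geometric mean of 14 reference genes or median ratios as scale, a pseudocount of 1 or 30, a filter of 100 or none, no block, only the groups compared, no trend, the t-test of the study's methods, a common floor and leaving out samples. Chosen after seeing the data were edgeR 4.0.16 on net counts rounded to the nearest integer and quantile normalization. In simulated data for the irradiated genotypes (461 genes), the fit called 50 of 100 genes with a true log2 change of 1, 99 of 100 with a change of 2 and 0 of 261 without change. The simulated counts had a fixed spread beyond counting error, no raised low end in Sirpα-/- IR and no error of scaling. These rates may therefore not hold for the measured data.

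Named are the 5 genes, for each the 3 genes most like it, and list genes that passed (at most 4 per list and comparison, smallest adjusted p); *Il12rb2* and *Il17a* were added after their values were seen. The members and lists were chosen with earlier results of these data known. *Sirpa* was not analysed here.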

Additional observations from a re-analysis of the deposited data

Results flagged for a closer look

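*Il12b* was picked out because its change with IR had opposite signs in the 2 genotypes, lower after IR in all 3 tumor models of WT mice by the deposited values (log2 ratios of value + 10 of -0.72, -0.46 and -0.03 in MC38, Pan02 and KPC) and higher in all 3 of Sirpα-/- mice (1.66, 2.94 and 1.39). The fitted difference of the IR effect was 2.40 (limma adjusted p = 0.0769, with 0.0651 to 0.642 over the alternatives), so it did not pass. The WT values lay between 1.50 and 8.92 normalized counts. The sign in KPC tumors of WT mice is not measured, since the non-irradiated sample was at its lowest value (3.79, at most 1 net count) and the irradiated one had 7 net counts at 3.53 normalized counts. With a common floor of 3 counts of the shallowest sample, the WT estimate was 0.0.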

How the results depend on the processing

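For genotype after IR, the count of called genes (76) became 14 with a filter of 100, 116 with no filter, 11 with only the groups compared, 11 after quantile normalization, 49 with median-ratio scaling, 6 with a common floor (3 counts of the shallowest sample) and 0 with the t-test of the study's methods, and 0 to 27 when each tumor model was left out. For IR in Sirpα-/- mice (199), it became 40 with edgeR, 99 with a filter of 100, 121 with only the groups compared, 22 after quantile normalization, 65 with median-ratio scaling, 97 with the common floor, 116 without the shallow KPC samples, 0 with that t-test and 0 to 101 on leaving out a tumor model. Without the replicate block (tumor model) it was 64. Genotype without IR gave 1 gene with only the groups compared, and the difference of the IR effect 0 to 1 on leaving out a tumor model. KPC against MC38 (218) gave 58 with edgeR, 62 after quantile normalization, 44 with reference genes and 52 with median ratios, KPC against Pan02 (310) gave 0 in each of these 4, and Pan02 against MC38 (124) gave 71 to 97 on leaving out a condition.

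For genotype after IR, *Il12b* and *Il23a* lost the call with the common floor (0.83 and 0.72), quantile normalization (0.90 and 0.80), only the groups compared (2.07 and 2.08) and that t-test (2.07 and 2.08), and ranged from 2.27 to 2.31 and from 2.21 to 2.32 without single tumor models. For IR in Sirpα-/- mice, both lost it with the common floor (0.83 and 0.72), that t-test (2.00 and 1.88) and quantile normalization (0.92 and 0.67) and without KPC (2.30 and 2.26), and ranged from 2.17 to 2.30 and from 1.89 to 2.26. *Il12a* lost it with median ratios (-2.78), a filter of 100 (-2.45), the common floor (-1.38), that t-test (-2.45), quantile normalization (-2.997) and without the shallow KPC samples (-1.37), and ranged from -3.21 to -1.61. *Ebi3* lost it with median ratios (1.496), that t-test (1.88), edgeR (1.16), quantile normalization (1.26) and without the replicate block (1.88), and ranged from 1.60 to 2.09. The sign of these 6 estimates held under all alternatives run, and the cause of each lost call was not tested. *Il12rb1* in KPC against Pan02 turned to 0.0214 with edgeR, and *Il12a* for genotype after IR to 0.21 without MC38. The tumor model was the pairing, and its removal changed no other call of the 5 genes for IR or genotype.

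Depth limits *Il12b*, *Il23a* and *Ebi3* in non-irradiated KPC tumors, where they had at most 2 net counts and 3 counts came to 11.4 (WT) and 19.5 (Sirpα-/-) normalized counts. It limits *Il12rb1* there as well, with 4 (WT) and at most 1 (Sirpα-/-) net counts. A filter of 100 and the fit without Pan02 gave no value for *Il12b*, and these and median-ratio scaling gave none for *Il23a*, which fell below the filter.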
